A study of Medicago truncatula with 9 samples.

Results

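The loci described here encode the large, ATP-driven chaperones of Medicago truncatula: the HSP60 chaperonins, HSP70, HSP90 and HSP100 families, with a few proteins described as their partners. They were chosen by words in the gene descriptions that the authors paired with each transcript model, and 120 of the 36695 loci in the deposited table matched. DnaJ and small heat shock proteins did not enter, and 4 further loci of the same families (Medtr5g006180, Medtr4g109450, Medtr7g024580 and Medtr3g061630) were left out by name with results of these data known. A test was possible for 60 of the 120 loci, which reached 1 FPKM in 3 or more libraries.

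RNA was sequenced from dry mature seeds of 3 genotypes. R108 was the wild type, and hsfa9-1 (line NF10440) and hsfa9-2 (line NF13157) were lines in that background with Tnt1 retrotransposon insertions. Each genotype had 3 libraries, each made from 50 seeds of different plants, and no other allele or treatment set the genotypes apart in the labels. All plants grew under 16 h of light at 20 and 19 °C, and after the pods had dried at 43% relative humidity the seeds of every genotype were kept at 20 °C. Each mutant genotype is a single insertion line, and 0 transcript models had a description naming HSFA9, so the labels could not be checked against the targeted gene.

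These chaperones bind unfolded or aggregated polypeptides and release them in cycles driven by ATP. HSP70 holds exposed stretches of a chain, HSP90 acts on proteins close to their folded state, the barrel-shaped chaperonins enclose a chain while it folds, and HSP100 of the ClpB type pulls polypeptides out of aggregates. In plant seeds many chaperones accumulate while the embryo matures and dries, and HSFA9 is known from sunflower and Arabidopsis as a seed-specific heat stress transcription factor that activates heat shock protein genes in the embryo.

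The libraries had FPKM totals (fragments scaled to transcript length and to all mapped fragments, summed over loci) from 922801 to 981285, and a relative depth of 0.989 to 1.003 of their mean. Absolute depth is unknown. Seed storage proteins summed to 18525.4, 11247 and 19025.7 FPKM in R108, hsfa9-1 and hsfa9-2, and oleosins, of oil bodies, to 4274, 6839 and 8143 FPKM. Of 20 tested storage loci 7 fell and 6 rose in hsfa9-1 (35% and 30%), and 4 fell and 12 rose in hsfa9-2 (20% and 60%). Between the mutants 5 of them (25%) were higher in hsfa9-2 and 0 lower, beside 0.491% and 0.628% of all tested loci. Of 6 tested oleosin loci 2 fell and 3 rose in each mutant. Photosynthesis loci, a mark of green tissue, summed to 3631 to 3920 FPKM in the R108 libraries, 2359 to 3132 in hsfa9-1 and 2018 to 2374 in hsfa9-2, and of the 81 tested loci in that list 28 fell and 20 rose in hsfa9-1, and 39 fell and 18 rose in hsfa9-2. Without R108 replicate 2 the number that fell in hsfa9-1 was 17. Loci described as nodulins or nodule proteins summed to 1299 to 1481, 2566 to 2881 and 2799 to 4394 FPKM, and of 48 tested 20 fell and 15 rose in hsfa9-1 and 20 fell and 18 rose in hsfa9-2, with median log2 changes of -0.10 and -0.18. The shares of photosynthesis loci were 34.6% lower and 24.7% higher in hsfa9-1, and 48.1% lower and 22.2% higher in hsfa9-2. Nodule loci had 41.7% lower and 31.2% higher in hsfa9-1, and 41.7% lower and 37.5% higher in hsfa9-2. The background over all tested loci was 31.9% lower and 27.6% higher in hsfa9-1, and 36.5% lower and 25.8% higher in hsfa9-2. The part of these lists in the results was not tested. Among 19 loci nearly lost in hsfa9-1, hsfa9-2 replicate 1 retained a median of 5.06% of the R108 mean, against 0.596% and 0.673% in the other hsfa9-2 libraries, so counts are also given without it.

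Summed over all 120 loci, chaperone transcripts were less abundant in both mutants. The sum was 7967 ± 98.2 FPKM in R108 (SD, n = 3, as for all errors that follow), 6171 ± 209 FPKM in hsfa9-1 and 6016 ± 225 FPKM in hsfa9-2, and the lowest R108 library, at 7867 FPKM, lay above the highest mutant library, at 6374 FPKM. As a share of all FPKM the loci took 0.839% ± 0.0313 in R108, 0.658% ± 0.0284 in hsfa9-1 and 0.625% ± 0.0298 in hsfa9-2. Since whole seeds were used, fewer cells of a type and less RNA per cell cannot be told apart. The 4 loci left out by name went the other way in sum, with 693.1 ± 30.7, 1198 ± 36.6 and 1442 ± 99.5 FPKM. They did not all rise. With them added, the lowest log2 change among tested loci went from -2.81 to -6.88 in hsfa9-1 and from -2.92 to -6.08 in hsfa9-2.

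The chaperone families did not share this decrease equally. Chaperonin loci, a class of HSP60 and its GroES-type lids, summed to 3544 ± 30.6 FPKM in R108, with 2540 ± 14.7 FPKM in hsfa9-1 and 2398 ± 106 FPKM in hsfa9-2. The lids, which are not HSP60, gave 1167, 726.7 and 710.6 FPKM of these sums. HSP70 loci summed to 2863 ± 35.8, 2022 ± 144 and 2087 ± 164 FPKM. HSP90 loci, with 1245 ± 60.7, 1355 ± 74.9 and 1278 ± 89.2 FPKM, overlapped between all genotypes. HSP100 loci, at 87.37 ± 1.52, 82.36 ± 2.43 and 77.08 ± 1.26 FPKM, were a small part of the total in all genotypes. That sum holds none of the left-out Medtr4g109450, described as an ATP-dependent chaperone ClpB, which alone had 318.9, 866.5 and 1138 FPKM. Within families the loci were grouped by KEGG term after the values were seen, and several groups held loci that fell beside loci that rose or were not called.

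**Figure D1:**
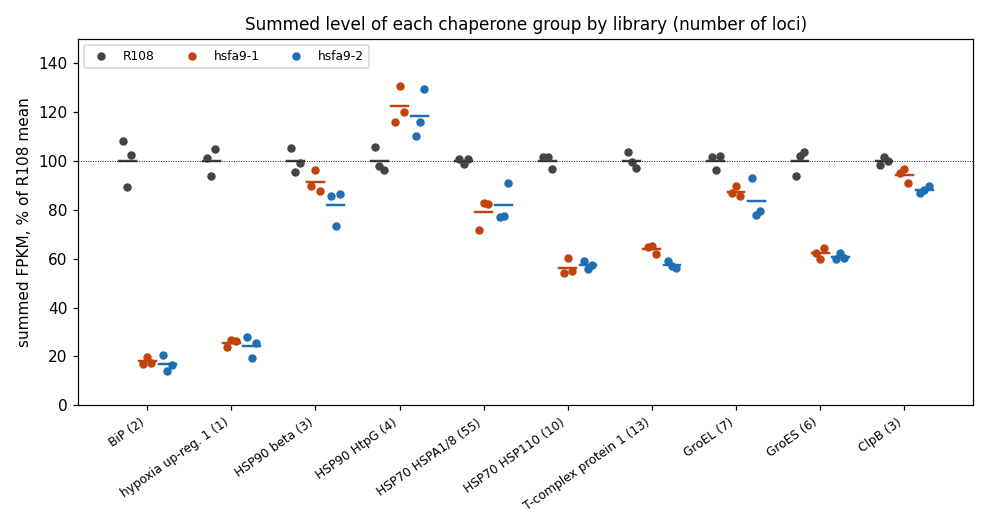
Summed FPKM of each chaperone group in every library, as a percentage of the R108 mean of that group (y axis); points are libraries, short lines are genotype means, and the number of loci stands in brackets on the x axis. The BiP type falls to 18% and 17% of R108 and the hypoxia up-regulated 1 type to 25.6% and 24.4%, while the HtpG type of HSP90 stands at 122% and 119%.

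Of the 60 tested loci, 32 fell and 16 rose in hsfa9-1 relative to R108, and 35 fell and 13 rose in hsfa9-2 (limma, adjusted p under 0.05). Over all 17508 tested loci, 31.9% fell and 27.6% rose in hsfa9-1, and 36.5% fell and 25.8% rose in hsfa9-2. The chaperones' shares were 53.3% lower and 26.7% higher in hsfa9-1, and 58.3% lower and 21.7% higher in hsfa9-2, so that the share of loci that rose lay near the background and the share that fell lay above it. Their median log2 change was -0.30 in hsfa9-1 and -0.38 in hsfa9-2, beside -0.04 and -0.10 over all tested loci. Both comparisons use the same R108 libraries. In both of them 31 chaperone loci fell and 13 rose, against 30% and 23.4% of all tested loci, 8 were called in neither mutant and 8 in a single mutant.

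The chaperones were more abundant than most loci, with a median R108 level of 60.8 FPKM against 11.1 FPKM over all tested loci. Among loci with a mean of at least 5 FPKM, fitted on their own, 57.1% of 56 chaperones fell in hsfa9-1 and 60.7% in hsfa9-2, beside 34.8% and 40% of all 11521 loci. In that fit 23.2% and 17.9% of the chaperones rose, below the 31% and 29% of all loci. With the 4 left-out loci added, 33 fell and 19 rose in hsfa9-1 and 36 fell and 16 rose in hsfa9-2. Without hsfa9-2 replicate 1, 34 fell and 13 rose in hsfa9-2 among 59 tested loci. When each library was centred on its median, the median change of all loci moved to 0.03 in both mutants, and 29 chaperones fell and 17 rose in hsfa9-1 while 30 fell and 17 rose in hsfa9-2. The same centring turned the calls over all loci in hsfa9-2 from 4511 higher and 6391 lower to 5634 higher and 5070 lower.

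**Figure D2:**
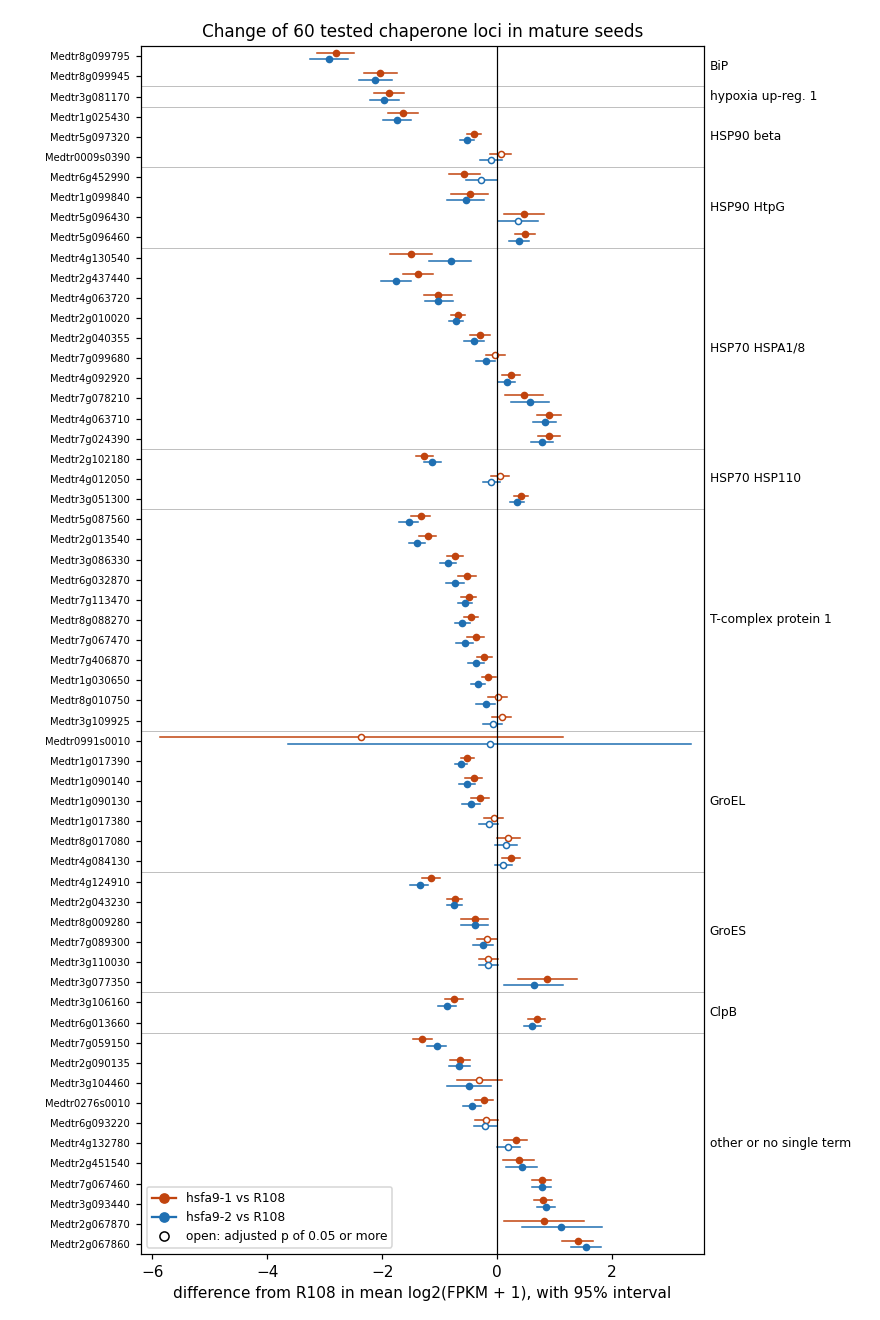
Difference from R108 in mean log2(FPKM + 1) on the x axis for each of the 60 tested loci, grouped by KEGG term; points are limma estimates, lines their 95% intervals, and open points did not pass an adjusted p of 0.05. The BiP-type loci lie at -2.81 and -2.04 in hsfa9-1, and most T-complex protein 1 loci lie left of 0, while the HSPA1/8 type of HSP70 spreads from -1.50 to 0.91.

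Among the 60 tested loci, the called loci that fell most carry KEGG terms of chaperones of the endoplasmic reticulum (ER). Secreted and storage proteins fold there. No description names a luminal-binding protein, the plant name of BiP, but 2 loci carry the KEGG term of BiP (heat shock 70kDa protein 5). BiP is the HSP70 of the ER lumen. Gene ontology gave neither locus a compartment term. Medtr8g099795 had 70.95, 56.87 and 68.98 FPKM in the R108 libraries, 7.49, 9.13 and 8.73 FPKM in hsfa9-1 and 8.98, 5.87 and 8.81 FPKM in hsfa9-2. Every mutant library lay below every R108 library. The log2 change was -2.81 in hsfa9-1 (95% interval -3.14 to -2.49, adjusted p = 1.13e-07) and -2.92 in hsfa9-2 (-3.25 to -2.59, adjusted p = 8.14e-08).

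Medtr8g099945, the other BiP-type locus, had 69.1, 59.09 and 63.49 FPKM in R108, 14.39, 16.4 and 13.68 FPKM in hsfa9-1 and 17.52, 12.26 and 12.54 FPKM in hsfa9-2. Again the mutants did not overlap R108, and the log2 change was -2.04 (adjusted p = 3.61e-07) and -2.12 (adjusted p = 2.65e-07). Both loci together summed to 129.5 ± 12.3 FPKM in R108 and to 23.27 ± 1.97 and 21.99 ± 4.22 FPKM in the mutants. The authors' counting could have split reads between near-identical copies, so the division between the loci is less certain than their sum.

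Medtr3g081170 carries the term hypoxia up-regulated 1, known in mammals as a large HSP70 relative of the ER that helps BiP to exchange its nucleotide. Its FPKM values were 48.94, 45.55 and 50.77 in R108, 11.54, 12.92 and 12.79 in hsfa9-1 and 13.61, 9.45 and 12.38 in hsfa9-2, without overlap of either mutant with R108. It fell by 1.88 on the log2 scale in hsfa9-1 (adjusted p = 3.06e-07) and by 1.96 in hsfa9-2 (adjusted p = 2.23e-07). Gene ontology placed it in both the ER and the chloroplast.

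Of 3 loci with the KEGG term heat shock protein 90kDa beta, 1 fell nearly as far. In mammals this term stands for the HSP90 of the ER, not for the cytosolic form also called HSP90 beta. Medtr1g025430, which carried no compartment term, had 49.93, 39.56 and 45.93 FPKM in R108, 14.42, 14.12 and 12.86 FPKM in hsfa9-1 and 13.82, 10.74 and 13.97 FPKM in hsfa9-2. The log2 change was -1.64 (adjusted p = 7.41e-07) and -1.74 (adjusted p = 4.62e-07), and neither mutant overlapped R108. In hsfa9-2 a locus without an ER-type term, the heat shock cognate Medtr2g437440, fell slightly more, by 1.76. The other loci with this term are placed in the chloroplast and mitochondrion by gene ontology. Of these, Medtr5g097320 fell less, from 128.5 ± 4.13 FPKM to 96.82 ± 2.29 and 88.75 ± 3.47 FPKM, with log2 changes of -0.41 (adjusted p = 0.000119) and -0.53 (adjusted p = 1.57e-05). Medtr0009s0390, at 367 ± 19.8, 383.5 ± 21.1 and 341.2 ± 35 FPKM, overlapped between R108 and each mutant and was called in neither, with 95% intervals of -0.12 to 0.25 and -0.30 to 0.08.

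Loci for other folding proteins of the ER also fell for the most part. A list by the words calnexin, calreticulin, protein disulfide, endoplasmin, ERO1 and derlin held 24 loci outside the chaperones, of which 21 were tested. In hsfa9-1 16 of them fell and 1 rose, with a median log2 change of -0.76, and in hsfa9-2 17 fell and 1 rose, with a median of -0.74. The shares that fell were 76.2% and 81%, beside 31.9% and 36.5% of all tested loci. Calreticulin Medtr1g083960, a lectin chaperone that holds glycoproteins in the ER, had 333.3, 309.93 and 329.4 FPKM in R108, 93.96, 101.53 and 94.5 FPKM in hsfa9-1 and 93.66, 84.44 and 88 FPKM in hsfa9-2. It fell by 1.74 (adjusted p = 1.14e-08) and 1.86 (adjusted p = 7.17e-09) on the log2 scale. The locus that rose was Medtr3g408340, described as derlin-2, a membrane protein of the pathway that removes misfolded proteins from the ER. It had 0.94, 1.87 and 1.42 FPKM in R108 but 62.61 to 64.53 FPKM in hsfa9-1 and 43.74 to 54.27 FPKM in hsfa9-2, log2 changes of 4.76 (adjusted p = 2.90e-09) and 4.41 (adjusted p = 4.19e-09).

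Some members of that list were named after their values were seen. Calnexin, the membrane-bound relative of calreticulin, had 2 loci: Medtr8g095680 went from 123.2 ± 9.49 FPKM to 23.68 ± 1.39 and 21.87 ± 4.02 FPKM, and Medtr3g098430 from 132.5 ± 4.46 FPKM to 32.23 ± 3.06 and 28.91 ± 3.84 FPKM. Protein disulfide isomerase Medtr3g088220, which forms disulfide bonds in new proteins, went from 105.7 ± 7.13 FPKM to 16.26 ± 0.222 and 15.11 ± 2.8 FPKM. No mutant library of these loci overlapped R108. The list also holds Medtr1g024840, described as LQY1, and Medtr4g086255, described as SCO2-like, names known in Arabidopsis for chloroplast proteins. Neither was called in hsfa9-1, with log2 changes of -0.01 and -0.21. In hsfa9-2 Medtr4g086255 fell by 0.49 (adjusted p = 0.0125) and Medtr1g024840 was not called (-0.32, adjusted p = 0.103).

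**Figure D3:**
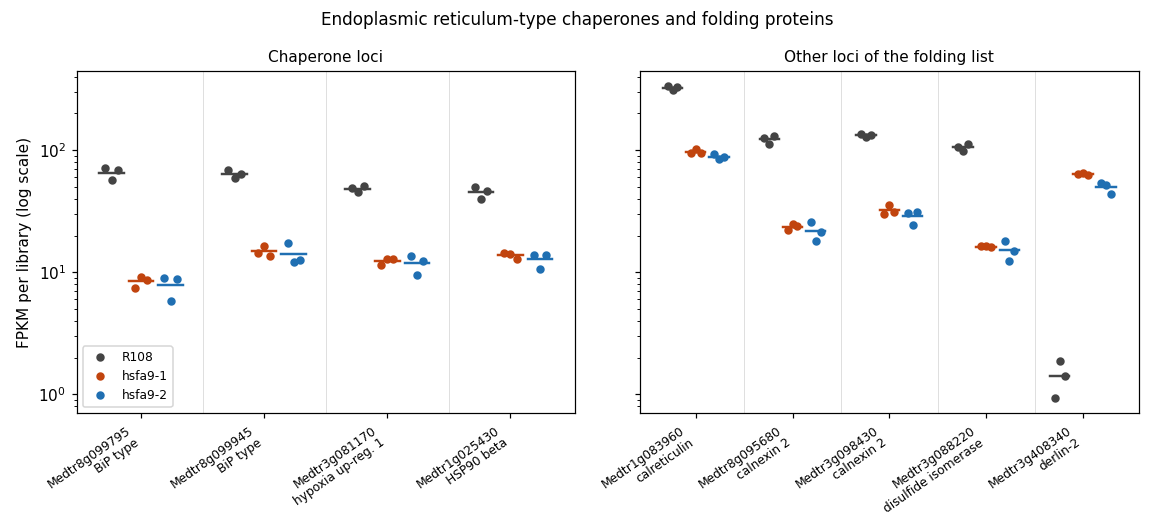
FPKM in every library (y axis, log scale) of chaperone loci with KEGG terms of ER chaperones (left) and of other ER folding loci (right). Points are libraries, short lines are genotype means. Both mutants lie below R108 without overlap at every locus shown except derlin-2 Medtr3g408340, where they lie above it.

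Most loci of T-complex protein 1 fell as well, the chaperonin of the cytosol, whose ring is built of different subunits and is best known for folding actin and tubulin. Its 13 loci summed to 1182 ± 39.6 FPKM in the wild type, against 756.8 ± 21.8 FPKM in hsfa9-1 and 678.5 ± 17.7 FPKM in hsfa9-2. Of the 11 tested loci, 9 fell in hsfa9-1 and 10 in hsfa9-2, and the rest were not called. These shares of 81.8% and 90.9% stood beside 31.9% and 36.5% of all tested loci. The median log2 change of the complex was -0.45 and -0.56. Under median centring 7 and 9 loci fell.

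The subunits stood at different levels relative to R108. The eta subunit Medtr5g087560 had 177.86, 167.13 and 157.58 FPKM in R108, 66.92, 68.32 and 63.31 FPKM in hsfa9-1 and 62.08, 53.17 and 56.4 FPKM in hsfa9-2. Its log2 change of -1.33 (adjusted p = 1.49e-07) and -1.53 (adjusted p = 5.81e-08) was the largest of the complex in each mutant. The gamma subunit Medtr2g013540, which was chosen after its values were seen, had 290.52, 273.02 and 261 FPKM in R108, 115.84, 121.83 and 116.93 FPKM in hsfa9-1 and 111.55, 99 and 101.92 FPKM in hsfa9-2, and the mutants did not overlap R108. In percent of the R108 mean, the single eta and gamma loci stood at 39.5% ± 1.54 and 43% ± 1.16 in hsfa9-1, and at 34.2% ± 2.69 and 37.9% ± 2.39 in hsfa9-2. The single epsilon locus stood at 60% ± 3.15 and 55.2% ± 1.77, and the single zeta locus at 85.7% ± 4.66 and 77.3% ± 2.46.

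The only tested delta locus, Medtr3g109925, had 68.06, 66.56 and 62.22 FPKM in R108, 72.85, 67.27 and 67.6 FPKM in hsfa9-1 and 64.61, 65.73 and 55.95 FPKM in hsfa9-2. R108 overlapped each mutant, and the log2 change was 0.08 (95% interval -0.09 to 0.24, adjusted p = 0.405) and -0.08 (-0.25 to 0.09, adjusted p = 0.373). Alpha, beta and theta each had 2 tested loci. The alpha locus Medtr8g088270 stood at 72.8% ± 2.66 of R108 in hsfa9-1 and 65.4% ± 2.58 in hsfa9-2. The alpha locus Medtr8g010750, at 31.12 ± 1.39 FPKM in R108, had 31.34 ± 2.22 FPKM in hsfa9-1 and 26.99 ± 1.87 FPKM in hsfa9-2, where it fell by 0.20 (adjusted p = 0.0425), a call lost under median centring (-0.08, adjusted p = 0.369) and 11 other settings. The beta loci Medtr7g113470 and Medtr7g067470 stood at 70.8% ± 1.04 and 76.8% ± 3.48 of R108 in hsfa9-1, and at 67.6% ± 1.57 and 66.9% ± 3.37 in hsfa9-2. The theta locus Medtr6g032870 stood at 68.1% ± 2.54 and 58.5% ± 4.01 in the mutants, and Medtr1g030650 at 90.3% ± 4.44 and 79.3% ± 1.85, its call in hsfa9-1 being lost under 11 settings. Differences between subunits were not tested.

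Prefoldin is the hexamer that hands actin and tubulin chains to this chaperonin. A list by the words T-complex protein, TCP-1 and prefoldin, outside the chaperones, held 9 tested loci. Of this whole list 5 were lower and 2 higher in each mutant, or 55.6% and 22.2%. All tested loci had 31.9% and 36.5% lower, and 27.6% and 25.8% higher. Medtr2g033830 went from 30.4 to 13.22 and 10.62 FPKM (adjusted p = 4.90e-05 and 7.51e-06), and prefoldin subunit 5, Medtr1g114500, from 191.7 to 133.8 and 125 FPKM (adjusted p = 0.000206 and 5.60e-05).

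**Figure D4:**
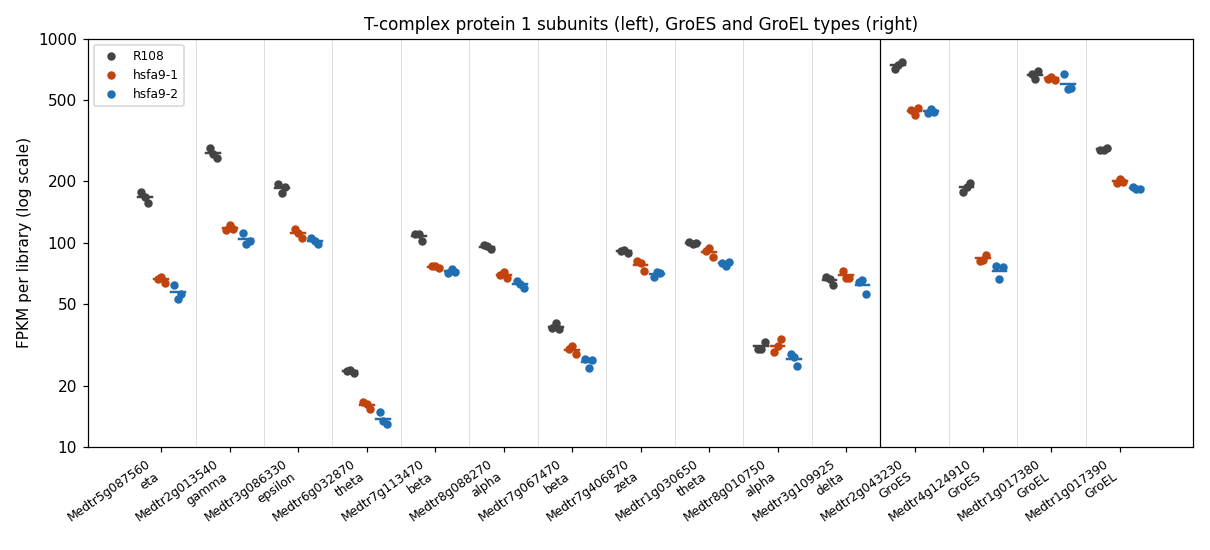
FPKM in every library (y axis, log scale) of the 11 tested T-complex protein 1 loci, ordered by their level relative to R108 in hsfa9-1, and of 2 GroES-type and 2 GroEL-type loci; points are libraries, short lines are genotype means. The eta and gamma subunits stand well below R108 and the delta subunit overlaps it.

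The chaperonins of plastids and mitochondria are built from GroEL-type subunits with GroES-type lids. Of 7 tested GroEL-type loci 3 fell in each mutant and 1 rose in hsfa9-1. The 42.9% lower stood beside 31.9% and 36.5% of all tested loci. GroEL-type loci summed to 1183 ± 38.1, 1034 ± 23.6 and 987.2 ± 98 FPKM. The most abundant, Medtr1g017380, has a chloroplast term and had 670.99, 633.17 and 693.86 FPKM in R108, 637.64, 652.93 and 630.94 FPKM in hsfa9-1 and 671.02, 566.59 and 575.17 FPKM in hsfa9-2. R108 overlapped both mutants and the locus was not called (log2 changes -0.06, adjusted p = 0.552, and -0.14, adjusted p = 0.121). Without hsfa9-2 replicate 1, its highest mutant library, the change in hsfa9-2 was -0.22 (adjusted p = 0.0142).

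Its direct neighbour in the RefSeq gene table, Medtr1g017390, also has a chloroplast term and did fall. It had 285.29, 284.13 and 291.49 FPKM in R108, 197.54, 205.76 and 198.06 FPKM in hsfa9-1 and 188.66, 183.78 and 183.9 FPKM in hsfa9-2, without overlap. The log2 change was -0.52 (adjusted p = 9.43e-06) and -0.63 (adjusted p = 1.98e-06). Medtr1g017380 made up 69.9% ± 0.742 of the pair's FPKM in R108, against 76.2% ± 0.162 in hsfa9-1 and 76.4% ± 1.4 in hsfa9-2. The neighbouring loci Medtr1g090130 and Medtr1g090140, with a mitochondrial term, both fell, and their sum went from 167 ± 6.64 to 128 ± 5.64 and 117 ± 5.1 FPKM. The partial locus Medtr0991s0010 was at 14.15, 7.97 and 0 FPKM in R108, at 0 in all hsfa9-1 libraries and at 56.97, 0.81 and 0 FPKM in hsfa9-2, too uneven between replicates to be called.

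GroES-type loci summed to 1167 ± 61.6 FPKM in R108, to 726.7 ± 27 in hsfa9-1 and 710.6 ± 14.8 in hsfa9-2. Medtr2g043230, the most abundant chaperonin locus in R108, had 710.37, 742.7 and 772.71 FPKM in R108, 448.58, 424.15 and 458.16 FPKM in hsfa9-1 and 431.39, 453.47 and 438.82 FPKM in hsfa9-2. It fell by 0.74 (adjusted p = 2.27e-06) and 0.75 (adjusted p = 1.95e-06) on the log2 scale, without overlap. Medtr4g124910 fell further, from 187.5 ± 9.03 FPKM to 83.93 ± 2.73 and 72.96 ± 5.76 FPKM, log2 changes of -1.15 (adjusted p = 3.01e-07) and -1.35 (adjusted p = 9.67e-08). A rare GroES-type locus rose: Medtr3g077350 had 1.85, 3.01 and 2.53 FPKM in R108, 3.76, 6.14 and 6.28 FPKM in hsfa9-1 and 3.34, 3.72 and 6.38 FPKM in hsfa9-2, log2 changes of 0.87 (adjusted p = 0.00798) and 0.64 (adjusted p = 0.0347). In the GroES type 3 of 6 tested loci fell in hsfa9-1 and 4 in hsfa9-2. These were 50% and 66.7%, beside 31.9% and 36.5% of all tested loci. Medtr7g067460, described as a TCP-1/cpn60 protein but with KEGG terms that name other proteins, rose from 11.85 ± 0.581 FPKM to 21 ± 1.16 and 21.02 ± 1.15 FPKM, a log2 change of 0.78 in each mutant (adjusted p = 8.38e-06 and 7.63e-06).

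HSP70 loci of the HSPA1/8 term, which groups the stress-induced and constitutive HSP70 of animals and here also organellar forms, changed in both directions. Of 55 loci 10 were tested, of which 5 fell and 4 rose in hsfa9-1 and 6 fell and 4 rose in hsfa9-2. The shares lower were 50% and 60%, beside 31.9% and 36.5% of all tested loci. The share higher was 40% in each mutant, beside 27.6% and 25.8%. With a replicate block, and also without hsfa9-2 replicate 1, 5 of the 10 fell and 3 rose in hsfa9-2. The 55 loci summed to 2090 ± 24.9, 1651 ± 129 and 1711 ± 164 FPKM. The most abundant in R108, Medtr4g130540, has a chloroplast term. It had 728.21, 725.16 and 713.54 FPKM in R108, 195.02, 276.52 and 304.01 FPKM in hsfa9-1 and 363.79, 374.59 and 509.73 FPKM in hsfa9-2. No genotypes overlapped, and the spread was wider in the mutants than in R108. The log2 change was -1.50 in hsfa9-1 (95% interval -1.87 to -1.14, adjusted p = 2.09e-05) and -0.81 in hsfa9-2 (-1.18 to -0.45, adjusted p = 0.00147).

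Medtr4g130540 gave 34.6% ± 0.631 of the summed HSPA1/8-type FPKM in R108, against 15.5% ± 2.37 in hsfa9-1 and 24.2% ± 2.32 in hsfa9-2. Medtr7g099680, a heat shock cognate, took 26.1% ± 0.595 in R108, 32.5% ± 1.7 in hsfa9-1 and 27.8% ± 1.36 in hsfa9-2. Its own level of 556.6, 524.87 and 558.3 FPKM in R108 overlapped hsfa9-1, at 503.16, 577.31 and 525.48 FPKM, and lay above hsfa9-2, at 473.91, 441.49 and 511.35 FPKM. The change in hsfa9-2, -0.20 (adjusted p = 0.0373), was lost under median centring (-0.08, adjusted p = 0.438), and in hsfa9-1 it was -0.03 (adjusted p = 0.737).

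Neighbouring loci of this type went in opposite directions. Medtr4g063710 had 228.77, 220.47 and 238.15 FPKM in R108, 393.09, 420.93 and 474.56 FPKM in hsfa9-1 and 366.54, 397.95 and 460.65 FPKM in hsfa9-2, and rose by 0.90 (adjusted p = 1.57e-05) and 0.83 (adjusted p = 2.72e-05) on the log2 scale. Medtr4g063720, with no gene between them in the RefSeq table, had 95.19, 100.5 and 103.58 FPKM in R108, 40.4, 56.18 and 49.7 FPKM in hsfa9-1 and 48.08, 45.7 and 52.96 FPKM in hsfa9-2, and fell by 1.03 (adjusted p = 1.60e-05) and 1.02 (adjusted p = 1.63e-05). Neither locus overlapped between R108 and a mutant. Their sum rose from 329 ± 11.2 to 478 ± 45.4 and 457 ± 50.9 FPKM, and the share of Medtr4g063710 in it went from 69.7% ± 0.964 to 89.8% ± 1.37 and 89.3% ± 0.745. Both are described as heat shock cognate 70 kDa proteins, so reads may have been assigned wrongly between them.

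**Figure D5:**
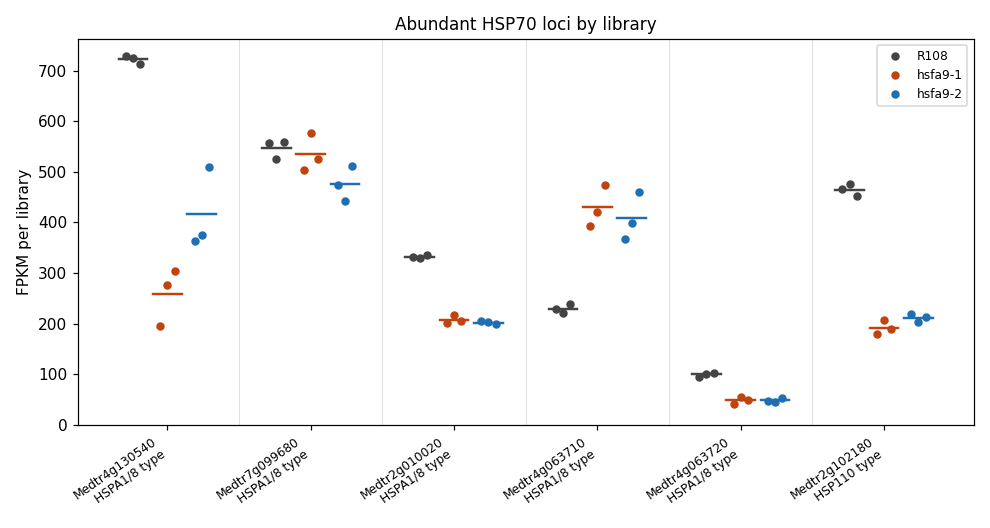
FPKM in every library (y axis, from 0) of 6 HSP70 loci; points are libraries, short lines are genotype means. Medtr4g130540 falls with a wide spread in both mutants, and the neighbours Medtr4g063710 and Medtr4g063720 move in opposite directions.

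Among the other loci of this type, Medtr2g010020, with chloroplast and mitochondrial terms, had 332.7 ± 2.67, 207.2 ± 8.11 and 202 ± 2.91 FPKM (log2 changes -0.68, adjusted p = 1.62e-06, and -0.72, adjusted p = 1.03e-06). Medtr2g437440 had 17.46, 20.74 and 19.29 FPKM in R108, 6.31, 7.61 and 6.51 FPKM in hsfa9-1 and 4.27, 5.82 and 4.78 FPKM in hsfa9-2, and fell by 1.37 (adjusted p = 3.34e-06) and 1.76 (adjusted p = 4.92e-07). Medtr7g024390 rose, from 14.86, 14.87 and 16.17 FPKM in R108 to 27.19, 32.59 and 29.18 FPKM in hsfa9-1 and 24.51, 28.58 and 28.25 FPKM in hsfa9-2, by 0.91 (adjusted p = 8.55e-06) and 0.78 (adjusted p = 2.31e-05). The mutants did not overlap R108 at any of these loci. Medtr4g092920, with a mitochondrial term, rose by 0.24 (adjusted p = 0.0097) and 0.17 (adjusted p = 0.0474), the latter a call lost with a replicate block (0.17, adjusted p = 0.0676), without hsfa9-2 replicate 1 (0.17, adjusted p = 0.0763) and under 9 other settings.

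HSP110-type loci, large HSP70 relatives that exchange the nucleotide of HSP70, numbered 10, of which 3 were tested and gave different calls. Medtr2g102180 had 465.3, 476.41 and 452.71 FPKM in R108, 179.15, 208.12 and 188.8 FPKM in hsfa9-1 and 218.71, 202.38 and 213.13 FPKM in hsfa9-2. It fell by 1.27 (adjusted p = 1.12e-07) and 1.13 (adjusted p = 2.26e-07), without overlap. Medtr3g051300 rose from 28.95 ± 0.758 to 38.96 ± 0.815 and 36.91 ± 0.561 FPKM (adjusted p = 9.11e-05 and 0.000356), and Medtr4g012050, with log2 changes of 0.05 and -0.10, was not called (adjusted p = 0.578 and 0.23).

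HSP90 of the HtpG term, the cytosolic kind in plants, had a higher summed level in the mutants, with 861.3 ± 53.4 FPKM in hsfa9-1 and 834.9 ± 69.6 FPKM in hsfa9-2 against 704 ± 36.2 FPKM in R108. Most of that sum came from Medtr5g096460, which had 514.89, 463.1 and 473.35 FPKM in R108, 660.38, 726.74 and 643.74 FPKM in hsfa9-1 and 592.12, 619.95 and 684.42 FPKM in hsfa9-2. It rose by 0.48 (adjusted p = 0.000334) and 0.38 (adjusted p = 0.00147) on the log2 scale, and no mutant library overlapped R108. Medtr6g452990 had 163.8 ± 5.69, 111.4 ± 18.7 and 135.6 ± 17.4 FPKM, and passed the test in hsfa9-1 (-0.57, adjusted p = 0.00228) but not in hsfa9-2 (-0.28, adjusted p = 0.0683). The difference between the mutants at this locus was 0.29 (adjusted p = 0.311). Of 4 tested loci of the HtpG term, 2 rose and 2 fell in hsfa9-1, and 1 rose and 1 fell in hsfa9-2. Of all tested loci 27.6% rose and 31.9% fell in hsfa9-1, and 25.8% rose and 36.5% fell in hsfa9-2.

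HSP100 of the ClpB type, the disaggregase that works with HSP70, had 3 loci beside the left-out Medtr4g109450, of which 2 were tested and moved apart. Medtr3g106160 had 56.14, 58.57 and 58.44 FPKM in R108, 34.35, 34.76 and 32.51 FPKM in hsfa9-1 and 33.51, 30.84 and 28.99 FPKM in hsfa9-2, and fell by 0.75 (adjusted p = 4.73e-06) and 0.87 (adjusted p = 1.42e-06). Medtr6g013660, described as ClpB3, had 29.6, 30.18 and 29.04 FPKM in R108, 48.62, 49.57 and 47.11 FPKM in hsfa9-1 and 42.32, 46.11 and 49.32 FPKM in hsfa9-2, and rose by 0.69 (adjusted p = 8.63e-06) and 0.61 (adjusted p = 1.89e-05). Neither locus overlapped between R108 and a mutant. Subunits of the Clp protease, whose ATPases are relatives of ClpB but feed a protein-degrading chamber, gave 9 higher loci of 21 in each mutant, with 3 lower in hsfa9-1 and 5 in hsfa9-2. That is 42.9% higher in each, and 14.3% and 23.8% lower. All tested loci had 27.6% and 25.8% higher, and 31.9% and 36.5% lower. Among the Clp protease subunits Medtr3g098310 rose from 5.423 to 24.18 and 31.73 FPKM (adjusted p = 3.40e-08 and 1.21e-08).

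The 11 loci described as partners of HSP70 or HSP90 summed to 227.6 ± 0.736, 171.7 ± 2.39 and 176.1 ± 10.1 FPKM, and of 9 tested, 5 rose and 3 fell in hsfa9-1 and 4 rose and 3 fell in hsfa9-2. The share lower, 33.3% in each mutant, lay near that of all tested loci, 31.9% and 36.5%. The share higher was 55.6% and 44.4%, beside 27.6% and 25.8%. The sum followed its most abundant locus, Medtr7g059150, described as an HSP70-interacting protein, which had 85.93, 86.67 and 85.43 FPKM in R108, 32.01, 34.55 and 36.48 FPKM in hsfa9-1 and 37.31, 43.44 and 42.18 FPKM in hsfa9-2. It fell by 1.30 (adjusted p = 1.70e-07) and 1.05 (adjusted p = 6.89e-07), without overlap with R108. Medtr2g090135, of the same description, went from 53.73 ± 2.39 FPKM to 33.87 ± 2.26 and 33.8 ± 2.74 FPKM (log2 changes -0.65, adjusted p = 3.85e-05, and -0.66, adjusted p = 3.38e-05).

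Other partners rose. Medtr2g067860 had 1.85, 1.85 and 1.4 FPKM in R108, 6.22, 6.53 and 5.53 FPKM in hsfa9-1 and 6.45, 7.85 and 6.44 FPKM in hsfa9-2, with log2 changes of 1.40 (adjusted p = 3.26e-06) and 1.55 (adjusted p = 1.37e-06), the highest of all tested chaperone loci. Medtr3g093440, whose KEGG term names a SET and MYND domain protein, rose from 9.057 ± 0.546 to 16.45 ± 0.411 and 17.06 ± 0.429 FPKM, by 0.80 (adjusted p = 4.86e-06) and 0.85 (adjusted p = 2.83e-06). Medtr2g067870 had 2.46, 0.98 and 1.16 FPKM in R108, 4.58, 4.8 and 1.47 FPKM in hsfa9-1 and 4.16, 4.15 and 4.73 FPKM in hsfa9-2. It overlapped R108 in hsfa9-1 (0.81, adjusted p = 0.0452) and did not in hsfa9-2 (1.12, adjusted p = 0.00981).

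Other partners were covered by a list of words for nucleotide exchange factors, BAG, p23, AHA1, SGT1 and FKBP62 proteins, in which 17 of 36 tested loci fell and 9 rose in hsfa9-1, and 20 fell and 7 rose in hsfa9-2. The shares lower were 47.2% and 55.6%, beside 31.9% and 36.5% of all tested loci. The word p23 also caught 11 tested loci described as SKIP23 or ATP23, which are not HSP90 partners by name. Without them 10 of 25 fell and 9 rose in hsfa9-1 and 12 fell and 7 rose in hsfa9-2, and when R108 replicate 1 was also left out 5 rose in hsfa9-1. The immunophilin Medtr8g080980, described as FKBP62-like, a kind known in Arabidopsis to bind HSP90, fell from 72.17 to 15.45 and 18.51 FPKM (adjusted p = 1.42e-07 and 3.17e-07). Medtr8g012340, of the same description, fell from 231.8 to 105.2 and 101.4 FPKM (adjusted p = 1.39e-07 and 9.71e-08).

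Reference lists of protein synthesis and turnover stand beside these counts. Of 55 tested proteasome loci 31 fell and 5 rose in hsfa9-1, and 33 fell and 3 rose in hsfa9-2, shares of 56.4% and 60% lower. Of 291 tested ribosomal protein loci 115 fell and 24 rose in hsfa9-1, and 146 fell and 26 rose in hsfa9-2, shares of 39.5% and 50.2% lower. The chaperones' 53.3% and 58.3% lower lay close to the proteasome's shares. The shares higher differed, with 26.7% and 21.7% of chaperones against 9.09% and 5.45% of proteasome loci. Under median centring 26 proteasome loci fell in each mutant, with 5 and 7 higher, and of the ribosomal protein loci 89 fell and 37 rose in hsfa9-1 and 91 fell and 43 rose in hsfa9-2.

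Between the mutants no tested chaperone locus was called by limma, where 0.491% of all tested loci were higher in hsfa9-2 than in hsfa9-1 and 0.628% lower. At an unadjusted p under 0.05 the count was 15 of 60 chaperones and 2592 of 17508 loci. The lowest adjusted p belonged to the HSP70 locus Medtr4g130540, which was higher in hsfa9-2 by 0.69 on the log2 scale (95% interval 0.33 to 1.06, adjusted p = 0.0907). For 53 of the 60 loci the 95% interval of the difference between the mutants lay within 0.5 of 0 on the log2 scale. The same count was not made over all tested loci, so it is not shown to be particular to the chaperones. With the 4 left-out loci added, 1 locus was higher and 1 lower.

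The remaining 60 chaperone loci were too low to be tested. Of these 52 are HSP70 loci and 15 were listed at 0 in every library. The highest value of any of them was 1.32 FPKM, and only the locus with this value, the beta-type T-complex protein 1 Medtr3g466600, reached 1 FPKM in any library. Of the tested loci, 57 had at least 1 FPKM in all 9 libraries. The exceptions were Medtr0991s0010 and Medtr2g067870, given above, and Medtr3g104460, a chaperonin CPN60-like locus at 1.38, 0.9167 and 0.73 FPKM on average.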

How the data were processed

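Mature seeds were sequenced in 9 libraries (BGISEQ-500, 50 bp reads, per the labels' protocols), and the authors deposited abundances as FPKM for 42631 transcript models. HISAT, HISAT2, Bowtie2 and RSEM are named in the submitters' processing notes without versions or roles, with the genome build and annotation not given in the sources used here. No read counts were used here, so absolute depth is unknown. Relative depth was read from ratios of low values between libraries, a method tested on simulated libraries.

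FPKM values were summed per locus (36695 loci, 4262 with several models), and the 17508 loci that reached 1 FPKM in 3 or more libraries were tested on log2(FPKM + 1), a scale computed from the deposited values that understates changes of low loci. All libraries entered 1 limma model (limma 3.58.1, statmod 1.5.0, R 4.3.3) with trend and robust moderation, whose Benjamini-Hochberg adjusted p-values cover all tested loci of a comparison. The script was tested on simulated data. No pair of libraries held identical values. Seeds of a library came from different plants, per the labels; p-values measure the spread between these libraries.

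The members, lists and tests were chosen with earlier results of these data known. Pathway lists were matched by description words, and KEGG and gene ontology terms are those of the deposited table. Loci named are, per class, the 2 with the highest R108 mean. Per mutant and direction, the 6 largest called changes without overlap and with a mean of at least 1 FPKM are also named. So are the most abundant loci with 95% intervals within 0.25 of 0 in both mutants. Per list the 2 loci with the lowest p in each mutant were picked. Only some of these are named, and none of the proteasome and ribosomal lists. Others were chosen after their values were seen. Neighbours come from the RefSeq table of assembly MtrunA17r5.0-ANR, matched by protein accession for 76 of 120 loci. Protein and promoter sequences were not analysed here. Alternatives were another pseudocount, other filters and scalings, plain limma, a replicate block, pairwise fits, transcript models, the left-out loci added, each library left out and, added after the data were seen, the co-chaperone list without SKIP23 and ATP23.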

Additional observations from a re-analysis of the deposited data

How the results depend on the processing

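Of 152 recomputed counts of called members, 149 stayed within 1.5 times of the reported value. The others compare hsfa9-2 with hsfa9-1, where no member was called: without a filter on low values 2 were lower (Medtr1g016250 and Medtr2g017700, both at 0.51 FPKM or less), and with the left-out loci added 1 was higher and 1 lower. Leaving out each library in turn gave 31 to 32 members lower and 13 to 17 higher in hsfa9-1, and 32 to 36 lower and 11 to 13 higher in hsfa9-2. With a replicate block 31 members were lower and 16 higher in hsfa9-1, and 35 lower and 12 higher in hsfa9-2. The replicate numbers gave no sign of pairing: same-numbered libraries correlated by -0.125 to 0.096 after group means were removed, and in 4 of 18 cases a library correlated best with its own number.

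Of 104 recomputed counts of lower loci in the T-complex protein 1, ER folding and co-chaperone groups, 100 stayed within 1.5 times; the other 4 are the co-chaperone list with a mean of at least 5 FPKM and without SKIP23 and ATP23, each 10 and 12 lower in place of 17 and 20. Under median centring the lower loci in hsfa9-2 went from 4 to 2 in the GroES type and from 5 to 2 in the Clp protease list. The HtpG type then had 2 higher in hsfa9-2 in place of 1. The GroEL type had 2 higher in each mutant, in place of 1 in hsfa9-1 and 0 in hsfa9-2. Without R108 replicate 2 the Clp protease list had 3 lower in hsfa9-2. The HtpG type had 1 higher in hsfa9-1 in place of 2 without R108 replicate 2 or 3 or hsfa9-1 replicate 2 or 3, and the GroEL type 2 in place of 1 without R108 replicate 1 or hsfa9-1 replicate 3.

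Of 810 recomputed changes of single named members, 784 gave the same call, 25 lost it, 1 gained it and 0 reversed. Losses concerned Medtr2g067870 in hsfa9-1 (10 settings), Medtr3g077350 in hsfa9-2 (4) and Medtr7g099680 in hsfa9-2 (11, with the replicate block -0.20, adjusted p = 0.0576); the cause was not tested. Low levels limit the 60 untested loci, and no interval for counting error can be given without counts.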
